A study of Mus musculus with 6 samples.

Results

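The clustered protocadherins are described here in the tailbud of the early mouse embryo, in wild-type embryos and in embryos homozygous for the MommeD43 allele of Smchd1. Members were all rows of the expression table that lie on chromosome 18 and carry a symbol of the alpha, beta or gamma protocadherin clusters, 57 rows (14 alpha, 22 beta and 21 gamma) of 35591 in all. Tailbud tissue containing the presomitic mesoderm was dissected from FVB/NJ embryos with 8 somites at embryonic day 8.5, and polyadenylated RNA of each embryo was sequenced. The groups were 3 Smchd1 +/+ embryos, called WT, and 3 Smchd1 MommeD43/MommeD43 embryos, called MommeD43. MommeD43 is a missense allele from a chemical mutagenesis screen. The study reports enhanced silencing with it at several targets, while its effect on chromatin conformation resembled a partial loss of function. It regards the allele as neomorphic, that is, as having an altered function. Each group held 1 male embryo (replicate 1) and 2 females. Both males had the same mother, while the females came from 4 different ones.

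Clustered protocadherins are cadherin-like adhesion proteins of the cell surface, best known for giving each neuron an identity of its own through binding of like to like. In the alpha and gamma clusters every variable exon has its own promoter and encodes the extracellular and transmembrane parts, and it is spliced to constant exons that encode a shared intracellular end. Beta genes consist of a single exon and lack such a shared end. The last genes of the alpha and gamma clusters (Pcdhac1, Pcdhac2, Pcdhgc3, Pcdhgc4 and Pcdhgc5) are called C-type. Promoter choice is known to involve CTCF, cohesin and DNA methylation, and SMCHD1, a chromatin protein, is a known repressor of these clusters. In neural stem cells the study saw lower levels of these clusters with MommeD43, though barely detectable and not significant. The comparison of MommeD43 with WT asks whether the level of the clusters in the tailbud differs with this allele.

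In the GRCm38 build, with GENCODE M21 gene models, all 3 clusters lie on the plus strand of chromosome 18. The alpha rows run from 36930184 to 37187661, the beta rows from 37264938 to 37524479 and the gamma rows from 37661793 to 37841873. Each alpha row has 4 exons, and all 14 alpha rows share 2860 bases of exon, beside 2346 to 4675 bases that belong to a single row. All 21 gamma rows share 2116 bases, beside 1570 to 5508 of their own. A read in a shared exon was counted in every row of its cluster, so alpha and gamma rows are not separate measurements. Reads above the lowest row of the same cluster in the same library are called own reads, and they stand for the variable exons. Pcdhgb1, Pcdhga4, Pcdhgb4 and Pcdhga8 share more bases with other gamma rows than the 2116 (3154, 3157, 2224 and 2227). Reads in these further shared bases can count as own in more than 1 row. They can thus raise sums of gamma own reads and the levels per kilobase of these genes. The table lists Pcdha11 for 2 rows, and the one that starts at 37010712 is called the second Pcdha11 row.

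Library totals recovered from the values ranged from 10957916 to 47298348 reads, a ratio of 4.32. Markers of the presomitic mesoderm and tailbud progenitors were present in every library, with a summed level over 10 genes of 561 to 796 RPKM (reads per kilobase of exon and per 1000000 library reads) in WT and 583 to 702 in MommeD43. Neuron markers, the cells in which these clusters are best known, summed to 13.2 to 22.1 RPKM over 7 genes in WT and to 12.7 to 15.9 in MommeD43, mostly Tubb3 and Stmn2, while Dcx and Neurod1 were at or near 0. Of 4 neural crest markers, Foxd3 had 0 reads in every library and Sox10 had at most 1. The others were present in every library, Tfap2a at 1.79 to 2.43 RPKM and Pax3 at 0.889 to 1.65 RPKM. Blood markers varied most, with summed levels from 5.56 to 470 RPKM in WT and from 13.5 to 209 in MommeD43, and yolk sac markers summed to 127 to 261 and 34.7 to 407 RPKM. Among the genes tested in these lists, which also covered neural tube and endothelium, Hes7, a segmentation clock gene, alone had an unadjusted p under 0.05 (log2 fold change 0.47, SE 0.20, unadjusted p = 0.044 from the limma fit across all genes, adjusted p = 0.999). Of all genes tested 2.41% were under that threshold. Smchd1 itself, which carries a missense change and so does not check the labels, was at 8.07 ± 0.672 RPKM in WT and 7.58 ± 0.3997 in MommeD43 (SD, n = 3 each). Because the samples are bulk tissue, fewer cells of a type and less RNA per cell cannot be told apart.

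The 3 clusters were at very different levels. Gamma rows lay between 12.9 and 31.4 RPKM in every library, alpha rows between 0.140 and 0.737 RPKM, and no beta gene exceeded 0.115 RPKM in any library. The lowest gamma row held, per base of shared exon, 113-fold more reads than the reads common to all alpha rows (median over the 6 libraries). In every row tested the libraries of WT and MommeD43 overlapped.

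**Figure D1:**
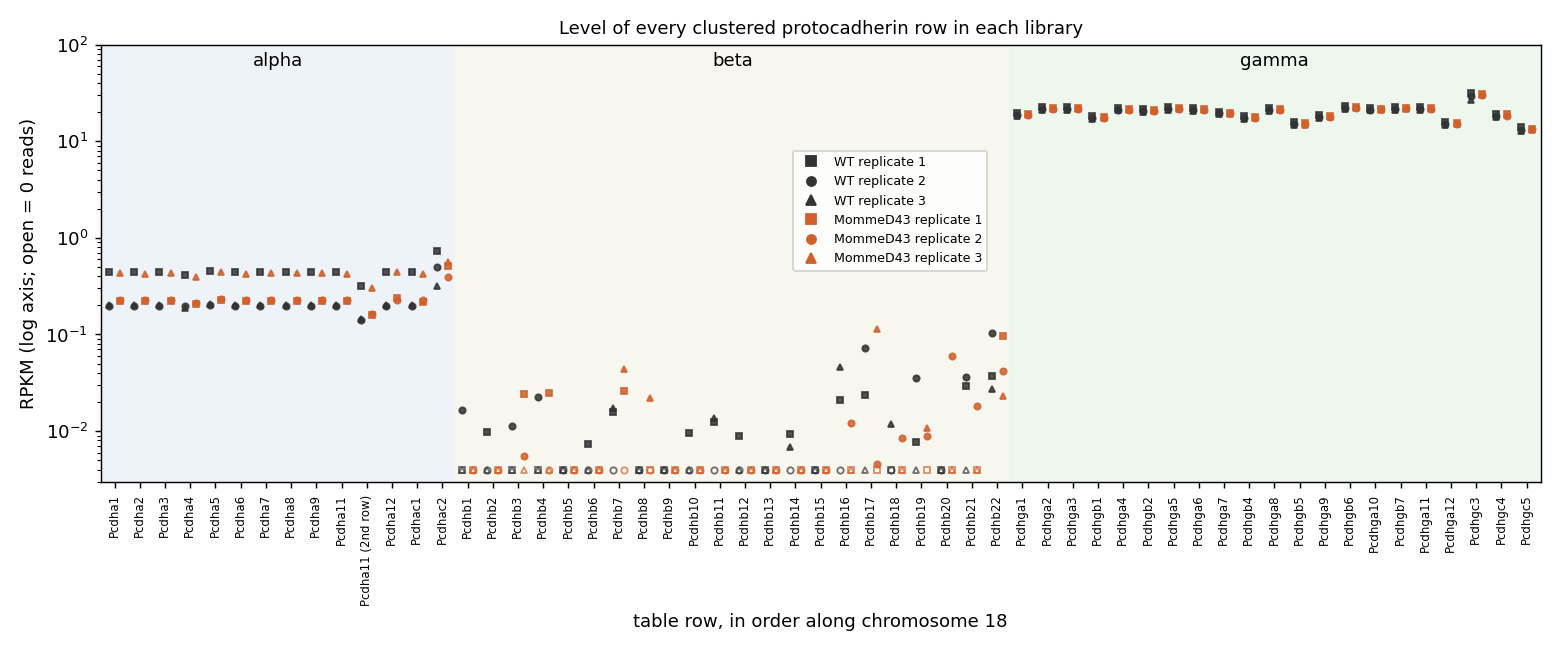
RPKM on a log axis for each of the 57 rows in their order along chromosome 18, with 1 point per library (black WT, orange MommeD43; square, circle and triangle for replicates 1, 2 and 3; open points at the bottom for 0 reads). Gamma rows form a band between 12.9 and 31.4 RPKM with Pcdhgc3 at its top, alpha rows lie under 1 RPKM, and most beta points are at 0 reads.

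Of the 57 rows, 35 passed the filter on low values (all 14 alpha, 0 beta and all 21 gamma rows). No member differed between MommeD43 and WT at an adjusted p under 0.05 (limma with Benjamini-Hochberg adjustment over 13635 autosomal genes), where 0% of all genes tested did. At an unadjusted p under 0.05 there were again 0 members, against 2.41% of all genes tested, and voom on recovered reads likewise called 0 members at either threshold. Groups that did not overlap were found in 0 members and in 7.08% of all genes. Because of their shared exons the 35 rows are far fewer separate measurements. Counts of 0 members therefore say little beside these shares. The smallest unadjusted p among the members was 0.430, for Pcdhgc3, and the adjusted p was 0.999 (limma) for it. The intervals on these folds differed widely between the clusters, as given for each one next.

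Gamma rows were the best measured. Their log2 fold changes ran from -0.01 to 0.06, with a median of 0.00 that equals the median of 0.00 over all genes tested, and standard errors from 0.05 to 0.07. Of these rows 13 were above 0 and 8 below, none beyond its error. The 95% intervals of all 21 rows lay within 0.907-fold and 1.16-fold. Since most reads of a gamma row are shared, these 21 values mostly repeat one measurement.

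That measurement can be read from the lowest gamma row, which was Pcdhga6 in 4 libraries, Pcdhga9 in MommeD43 replicate 1 and Pcdhga1 in MommeD43 replicate 3. It held 3836, 2337 and 1623 reads in WT and 1119, 4736 and 1300 reads in MommeD43. Scaled to library size, in CPM (reads per 1000000 library reads), this was 105, 98.9 and 97.6 in WT and 102, 100.1 and 99.3 in MommeD43. The 6 libraries thus lay within 1.07-fold of each other, and the groups overlapped. The means were 100.4 ± 3.79 and 100.5 ± 1.44 CPM (SD, n = 3 each), a log2 difference of 0.00 beside a spread within groups of 0.04.

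Pcdhgc3, a C-type gene known to be expressed widely outside the nervous system as well, accounted for most of the gamma cluster's own reads. Its row spans 37806364 to 37841873. Own reads of Pcdhgc3 were 2481, 1462 and 801 in WT and 731, 3018 and 854 in MommeD43, which is 63.5% to 71.5% of all gamma own reads in a library. Its variable exon had 67.8, 61.9 and 48.2 CPM in WT and 66.7, 63.8 and 65.2 in MommeD43. WT replicate 3 was the low library, its exact 95% counting interval of 44.9 to 51.6 lay under those of the other 5, and the 3 MommeD43 libraries fell between WT replicates 1 and 2. Per kilobase of its own exon Pcdhgc3 stood at 17.5 ± 2.97 RPKM in WT and 19.3 ± 0.429 in MommeD43 (SD, n = 3 each). The fold change of its own reads was 0.11 on the log2 scale (SE 0.11), with an unadjusted p of 0.341 by voom fitted across all genes. Over the whole row, the levels were 29.0 ± 2.43 and 30.1 ± 0.483 RPKM, and the log2 fold change was 0.06 (SE 0.07).

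BC037039, a gene on the opposite strand, has 1559 of its 2205 exon bases in the Pcdhgc3 variable exon. It held 2 to 65 reads in a library, where Pcdhgc3 held 731 to 3018 own reads. The labels name a stranded kit, but whether reads were counted by strand is not given in the sources used here. Other gene models on the same strand cover the shared gamma exons, so some of the reads counted there may belong to their transcripts.

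The other 20 gamma genes shared the rest of the own reads, and none of them had own reads above 4.26% of its row in any library. Summed over these genes, own reads came to 27.0, 35.6 and 22.2 CPM in WT and 26.8, 26.0 and 26.7 in MommeD43. WT replicate 2 was highest and WT replicate 3 lowest, with the MommeD43 libraries between them. The means were 28.3 ± 6.82 and 26.5 ± 0.436 CPM (SD, n = 3 each).

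Among them Pcdhgb6, Pcdhga11 and Pcdhgb7, which all lie toward the C-type end, had the highest level per kilobase of own exon. Genes on the opposite strand overlap 52.4% of the own exon bases of Pcdhga11, 29.7% of those of Pcdhgb7 and 0% of those of Pcdhgb6. If reads were not counted by strand, the values of Pcdhga11 and Pcdhgb7 may include reads of those genes. Pcdhgb6, a B-type gene, had 137, 104 and 43 own reads in WT and 40, 165 and 43 in MommeD43, or 1.39 ± 0.358 and 1.36 ± 0.071 RPKM of own exon. Pcdhga11, an A-type gene, had 129, 93 and 32 own reads in WT and 41, 145 and 45 in MommeD43. Pcdhgb7 had 91, 79 and 38 in WT and 30, 165 and 24 in MommeD43. In all 3 genes the libraries of the groups overlapped once scaled to depth. A-type genes together made 12.9 ± 4.27 CPM of own reads in WT and 11.4 ± 1.25 in MommeD43, and B-type genes 11.5 ± 2.62 and 10.4 ± 1.62 (SD, n = 3 each), so neither type differed beyond its spread.

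Pcdhgc4, the C-type gene known to be needed for the survival of neurons, was low in its own exon, with 118, 58 and 41 own reads in WT and 42, 123 and 55 in MommeD43. That is 0.781 ± 0.126 RPKM in WT and 1.02 ± 0.241 in MommeD43 (SD, n = 3 each), and the log2 fold change of own reads was 0.14 by voom (unadjusted p = 0.586 from the fit across all genes). Pcdhgc5, the last gamma gene, had 65, 26 and 12 own reads in WT and 13, 55 and 13 in MommeD43, at 0.218 ± 0.097 and 0.202 ± 0.019 RPKM. Both were far below Pcdhgc3 per kilobase in every library.

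Pcdhga2 was the single member with an unadjusted p under 0.05 when own reads were tested in place of whole rows. It had 51, 45 and 15 own reads in WT and 5, 31 and 16 in MommeD43. Its log2 fold change was -0.95 (SE 0.41), with an unadjusted p of 0.042 and an adjusted p of 0.9997 (voom with limma, 13619 genes). The groups overlapped, as MommeD43 replicate 3 was above WT replicate 3. This was 1 of 19 members tested that way (18 gamma genes and Pcdhac2), where 3.13% of all genes were under the same threshold. The 18 gamma genes had a median log2 fold change of -0.07 in own reads, with 7 higher and 11 lower.

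**Figure D2:**
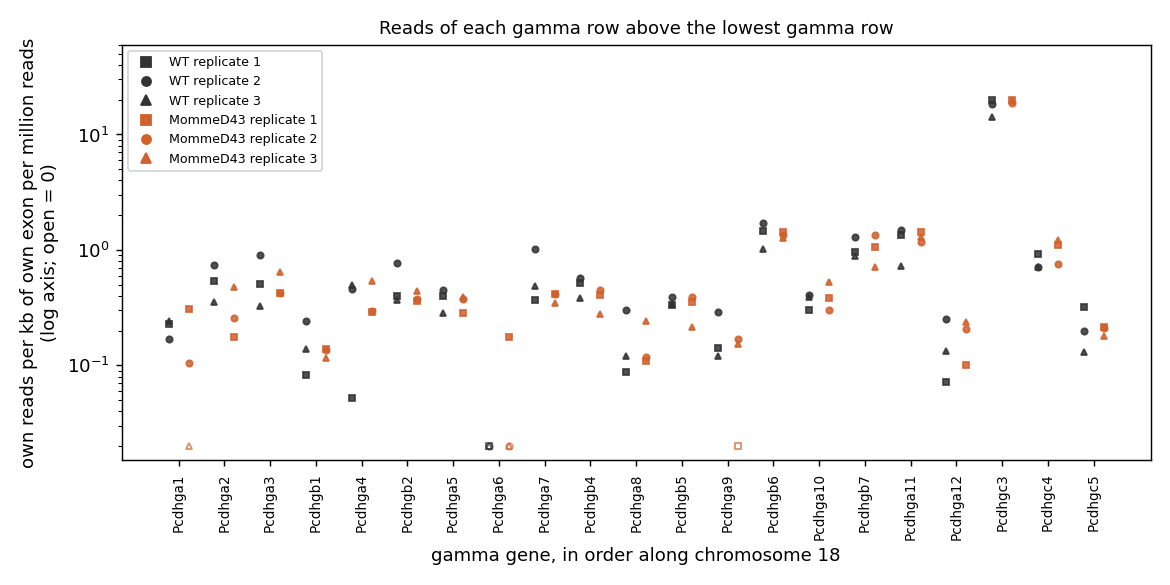
Reads above the lowest gamma row, per kilobase of the gene's own exon and scaled to library size (RPKM), on a log axis, for each of the 21 gamma genes and each library (black WT, orange MommeD43; open points for 0). Pcdhgc3 lies near 20 RPKM in 5 libraries and lower in WT replicate 3, far above all other gamma genes, of which Pcdhgb6 is the highest by mean.

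Alpha rows were close to the lower limit of the assay, and in every row but Pcdhac2 nearly all reads were shared. In the Pcdhac2 row own reads made up 30.2% to 63.8% of the reads in a library. The reads common to every alpha row numbered 87, 25 and 18 in WT and 13, 58 and 30 in MommeD43. In each library 12 or 13 of the 14 alpha rows had exactly that number. Pcdha4 had 2 more reads in WT replicate 2, and Pcdha12 had 1 more in MommeD43 replicate 1 and in MommeD43 replicate 3. Apart from these and Pcdhac2, no alpha row had a read above the lowest row, Pcdhac1 included, so the values of the other rows are those of the constant exons.

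The common alpha reads came to 2.38, 1.06 and 1.08 CPM in WT and 1.19, 1.23 and 2.29 in MommeD43. WT replicate 1 and MommeD43 replicate 3 were high and the remaining 4 libraries low, with means of 1.51 ± 0.754 and 1.57 ± 0.627 (SD, n = 3 each). The exact 95% counting interval was 1.90 to 2.93 in WT replicate 1 and 1.55 to 3.27 in MommeD43 replicate 3. These 2 libraries, 1 of each group, also had the highest summed levels of presomitic mesoderm and tailbud progenitor markers, 796 and 702 RPKM. The part of tissue composition in the alpha level was not tested.

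Pcdhac2, a C-type gene whose row spans 37143503 to 37187657, was the only alpha gene with own reads in every library. It had 72, 44 and 13 of them in WT and 20, 52 and 13 in MommeD43. Scaled to depth these were 1.97, 1.86 and 0.782 CPM in WT and 1.83, 1.10 and 0.993 in MommeD43. Libraries of both groups were found at the high and the low end. Per kilobase of own exon the level was 0.508 ± 0.217 RPKM in WT and 0.431 ± 0.150 in MommeD43 (SD, n = 3 each), and the fold change of own reads was -0.39 on the log2 scale (SE 0.39, unadjusted p = 0.344 by voom). Own reads of Pcdhac2 did not follow the common alpha reads, since MommeD43 replicate 3 was high in the common reads and low in Pcdhac2, and WT replicate 2 the reverse.

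Over whole rows the alpha log2 fold changes were between -0.01 and 0.15, with a median of 0.10, 13 above 0 and 1 below. Their standard errors were 0.34 to 0.47, and the 95% intervals reached from 0.508-fold to 2.25-fold, so changes within that range could not be told from none at this depth and spread. The median depended on single libraries. It was 0.48 without WT replicate 1, -0.10 without WT replicate 2, -0.09 without WT replicate 3 and -0.21 without MommeD43 replicate 3. With voom on recovered reads of the same rows it was -0.14, so the direction of the alpha rows was not stable. In the females alone the rows had log2 fold changes of 0.24 to 0.67, and in the 1 pair of males of -1.002 to -0.53. Presomitic mesoderm and tailbud progenitor markers summed to 796 RPKM in the WT male and 583 in the MommeD43 male, and to 562 and 561 against 657 and 702 in the females. Yolk sac markers moved the other way, with 127 and 407 RPKM in the males, and 233 and 261 against 48.7 and 34.7 in the females. The part of these tissues in the alpha values was not tested. The difference between the sexes reached no less than an unadjusted p of 0.065 and an adjusted p of 0.481 (limma, interaction term), with 0 members called, against 0.271% of all genes tested. At an unadjusted p under 0.05 that term likewise had 0 members, against 10.8% of all genes, though member rows are not separate measurements. Of the genes tested in the marker lists it called 3 of 10 for presomitic mesoderm and tailbud progenitors (T, Msgn1 and Wnt3a) and 4 of 6 for yolk sac (Afp, Ttr, Rbp4 and Apob). With 1 male in each group the term takes its spread from the females alone, and as both males had the same mother, sex and mother cannot be told apart.

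**Figure D3:**
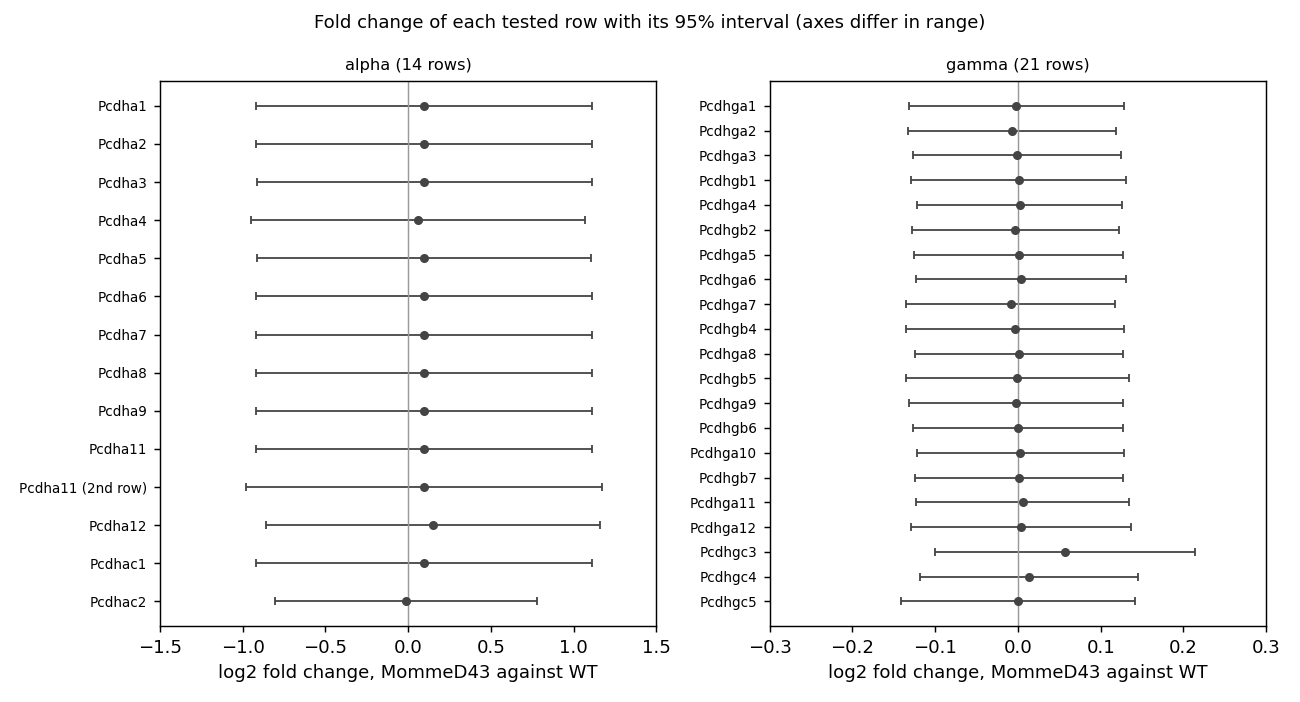
Log2 fold change of MommeD43 against WT for the 14 alpha rows (left) and the 21 gamma rows (right), with 95% intervals from limma; the horizontal axes differ in range. All intervals include 0, the alpha intervals reach from about -0.98 to 1.17 and the gamma intervals from about -0.14 to 0.21.

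Beta genes do not share exons, apart from an overlap of Pcdhb21 with Pcdhb22, and so each one is a measurement of its own. Together the 22 genes had 144 reads in 6 libraries. No read was found for Pcdhb5, Pcdhb9, Pcdhb13 and Pcdhb15, which over the 6 libraries together allows a level of up to 0.0055 to 0.0072 RPKM (3 reads, counting error only). Another 7 beta genes had reads in a single library. The reads lay mostly at the gamma side of the cluster. Pcdhb16 to Pcdhb22, 7 genes, held 119 reads (82.6%), and the 15 genes from Pcdhb1 to Pcdhb15 held 25.

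Pcdhb22, from 37517871 to 37524479, had the most, 50 reads (34.7%), and was the only beta gene with a read in every library. Its reads were 9, 16 and 3 in WT and 7, 13 and 2 in MommeD43, at 0.056 ± 0.041 RPKM in WT and 0.054 ± 0.038 in MommeD43 (SD, n = 3 each). Pcdhb17 had 4, 8 and 0 reads in WT and 0, 1 and 7 in MommeD43. Pcdhb20 had 10 reads, all of them in MommeD43 replicate 2, the deepest library. No group stood apart in any of these 3 genes.

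Summed over all beta genes there were 35, 38 and 11 reads in WT and 10, 37 and 13 in MommeD43. This gave 0.956, 1.61 and 0.662 CPM in WT and 0.913, 0.782 and 0.993 in MommeD43. WT replicate 2 was the highest library and WT replicate 3 the lowest, with all MommeD43 libraries between them. The means of 1.08 ± 0.485 and 0.896 ± 0.106 CPM (SD, n = 3 each) differed by -0.17 on the log2 scale, where the spread within groups was 0.47. Without Pcdhb22 the means were 0.708 ± 0.225 and 0.541 ± 0.285 CPM, a log2 difference of -0.48 beside a spread of 0.67. Of the beta reads, 58.3% came from WT libraries, which held 51.9% of all library reads. For the sum over all beta genes, leaving out WT replicate 2 turned the difference to 0.17, and leaving out WT replicate 3 gave -0.48.

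**Figure D4:**
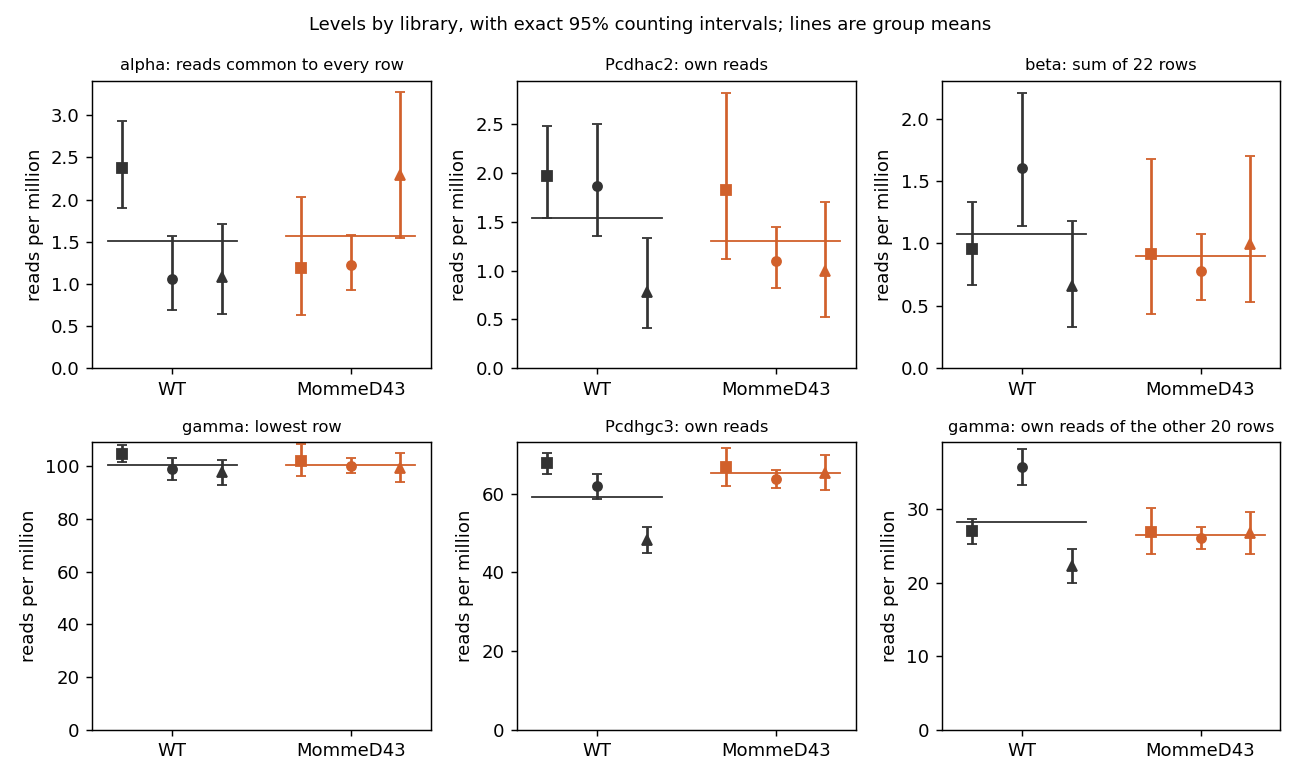
CPM in each library (symbols by replicate, black WT, orange MommeD43) with exact 95% counting intervals, and group means as lines, for the common alpha reads, Pcdhac2, the beta sum, the lowest gamma row, Pcdhgc3 and the other gamma genes; every vertical axis starts at 0. The lowest gamma row varies between 97.6 and 105 CPM, the groups overlap in all 6 panels, and intervals are wide for alpha and beta.

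Unclustered protocadherins belong to the same gene family but lie outside the 3 clusters, with Pcdh1 and Pcdh12 also on chromosome 18, beyond the gamma cluster. Of 12 such genes 5 were tested and 0 had an unadjusted p under 0.05. Pcdh18 was the highest, at 11.2 ± 3.08 RPKM in WT and 10.9 ± 0.733 in MommeD43, followed by Pcdh1 at 8.87 ± 3.33 and 8.24 ± 1.15 (SD, n = 3 each). Pcdh12, known from endothelium, had a log2 fold change of 0.44 (SE 0.30). Of the 4 endothelium markers 3 were higher and 1 lower, with a median of 0.38 and 0 at an unadjusted p under 0.05, their sums were 19.4 to 34.1 RPKM in WT and 26.6 to 34.8 in MommeD43, and their part in the Pcdh12 value was not tested. Pcdh10, at 0.056 ± 0.022 and 0.050 ± 0.020 RPKM, had a log2 fold change of -0.18 (SE 0.63). Pcdh15 had 0 reads in every library.

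Chromatin regulators, among them CTCF, cohesin and DNA methylation genes, were expressed in both groups. Of 18 such genes 16 were tested, with 3 higher, 13 lower, a median of -0.05 and 0 at an unadjusted p under 0.05. Over all genes tested 6952 were higher and 6683 lower, and whether the regulators differ as a set was not tested. Rad21, a cohesin subunit, was at 91.9 ± 1.88 RPKM in WT and 92.4 ± 2.65 in MommeD43. Dnmt1, the maintenance DNA methyltransferase, was at 55.5 ± 0.374 and 54.1 ± 1.76 RPKM. Nipbl, which loads cohesin, had a log2 fold change of -0.13 (SE 0.08). Groups did not overlap in 1 of the 16 regulators tested, against 7.08% of all genes tested. This was Lrif1, a chromatin protein that binds SMCHD1. Lrif1 was at 1.65, 2.03 and 1.77 RPKM in WT and 1.39, 1.30 and 1.63 in MommeD43. Its log2 fold change was -0.33 (SE 0.16), with an unadjusted p of 0.069 (limma).

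Among genes next to the clusters on chromosome 18, 16 of 17 were tested, 12 higher and 4 lower with a median of 0.05. Of these 1 (Dnd1) had an unadjusted p under 0.05 (limma), against 2.41% of all genes tested. Dnd1 was also the only 1 of the 16 in which the groups did not overlap, against 7.08% of all genes tested. Dnd1, an RNA-binding protein of germ cells, was at 1.472, 1.54 and 1.12 RPKM in WT and 1.78, 2.03 and 2.09 in MommeD43. Its log2 fold change was 0.52 (SE 0.17), with an unadjusted p of 0.015 and an adjusted p of 0.999 (limma). Zmat2, a splicing factor, at 55.8 ± 1.34 and 57.6 ± 3.48 RPKM, Hars, the histidyl-tRNA synthetase, at 50.2 ± 3.96 and 54.9 ± 3.67, and Ik, at 35.2 ± 1.88 and 37.7 ± 1.13, were high in both groups (SD, n = 3 each).

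Partners of the protocadherin intracellular ends, such as the WAVE complex that drives actin branching, were expressed as well, with 12 of 13 tested, 4 higher, 8 lower and 0 at an unadjusted p under 0.05. Brk1 was at 76.0 ± 3.04 RPKM in WT and 81.2 ± 2.83 in MommeD43, and Nckap1 at 41.3 ± 4.36 and 38.1 ± 2.50. Groups did not overlap in 1 of the 12 partners tested, Wasf2, against 7.08% of all genes tested. Wasf2 was at 14.31, 14.8 and 15.5 RPKM in WT and 13.4, 14.30 and 13.2 in MommeD43. Its log2 fold change was -0.13 (SE 0.06).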

How the data were processed

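The deposited table holds log2 RPKM per gene, made by the authors with SeqMonk after trimming and HISAT2 alignment to GRCm38, per the study's methods and the labels. Tailbud was taken from tissue and titles, although another field gives neural stem cells as the source. The authors' group means were not used. Rows were matched to GENCODE M21 (35555 of 35591), repeated identifiers (97 rows) by position. Reads were recovered as RPKM × exon length × library total. Rows without a read sit at 0.9 read, and 99.2% of values above that were whole within 0.02. Exact 95% Poisson intervals cover counting error only.

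The filter asked, in at least 3 libraries, for the level of 10 reads in a library of median size, and for 15 reads in all. Autosomal genes (13635) were tested two-sided on the deposited log2 values, with limma 3.58.1 (R 4.3.3) and its mean-variance trend. Own reads were tested with voom. The code was tested on simulated data. Python 3.11.15, pandas 2.3.3 and scipy 1.17.1 were used elsewhere. The number of unassigned columns was 0.

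Members and gene lists were chosen with earlier results of these data known. Named genes were Smchd1, members with an unadjusted p under 0.05, beta genes passing the filter, C-type members, the 2 highest and 2 lowest alpha and gamma rows by mean RPKM, and up to 4 genes of each other list (the 2 highest and the 2 with the smallest p). The alpha and gamma rows so named and not described singly are Pcdha5 and Pcdhgb5. Pcdhga2, Pcdhga11, Pcdhgb7, Pcdhb17, Pcdhb20 and Pcdhb22 were chosen after their values were seen. Alternatives were other scalings, filters and pseudocounts, sex as a covariate, females alone, a replicate block, each library left out, and voom; the tests of own reads for calls, and the alternatives of the sex interaction, were added after seeing the data. Replicates were separate embryos.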

Additional observations from a re-analysis of the deposited data

How the results depend on the processing

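The number of members called at an adjusted p under 0.05 stayed at 0 under all 17 alternatives. Members with an unadjusted p under 0.05 numbered 0 under every alternative except own reads tested with voom, which gave 1 (Pcdhga2). In own reads the gamma median was -0.068 in place of 0.00. With each library left out, the gamma median ranged from -0.02 to 0.03, the alpha median from -0.21 to 0.48 and the beta difference from -0.48 to 0.17. The alpha median was 0.65 in females alone, -0.14 with voom on whole rows and -0.39 in own reads, where it is the value of Pcdhac2 alone. Members called by the interaction of genotype and sex stayed at 0 under 6 alternatives. The beta genes gave no median, because 0 of them passed the filter. Of 26 named genes tested, 11 kept their sign under every alternative, and none of the 422 values had an adjusted p under 0.05. Genes of all kinds at an unadjusted p under 0.05 numbered 187 to 1185 across settings, against 328.

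Same-numbered libraries had correlations of -0.03, 0.17 and -0.17 in their deviations from the group means. With 3 libraries in each group, such correlations cannot decide whether the replicate numbers pair the samples. The paper describes the embryos as paired by somite number, and both replicate 1 embryos were males of the same mother. With the replicate block 0 members were called. The block and the sex covariate are balanced over the groups, so they can change only the errors, not the fold changes. The alpha median of 0.10, the gamma median of 0.00 and the beta difference of -0.17 were therefore bound to stay the same.

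Depth limits the alpha and beta clusters most, with 13 to 87 common alpha reads and 10 to 38 beta reads in a library. Leaving out a library leaves 2 against 3, and females alone 2 against 2.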

Other observations

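Pcdh8, a protocadherin known from the paraxial mesoderm, was at 0.049 ± 0.010 RPKM in WT and 0.040 ± 0.035 in MommeD43 (SD, n = 3 each), with 1 to 10 reads in a library, although Tbx6 and Msgn1, which mark the same tissue, were between 32.2 and 48.6 RPKM and between 76.2 and 123 RPKM. The X-linked Pcdh19 was at 4.31 ± 0.343 and 4.46 ± 1.38 RPKM and was not tested, since sex differs within the groups. Both genes were chosen after their values were seen.

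Slc25a2, a mitochondrial carrier gene between the beta and gamma clusters, did not pass the filter. It had 15, 9 and 7 reads in WT and 3, 15 and 1 in MommeD43, and its level of 0.295 ± 0.015 RPKM in WT lay above all 3 MommeD43 libraries (0.200, 0.232 and 0.056 RPKM). It too was chosen after its values were seen, and no test was made. Groups did not overlap in 7.08% of all genes tested, and at so few reads counting error alone is wide.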
